A study of Bos taurus with 5 samples.

Results

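The 60 named probes that differed most among the largest follicles of pregnant Japanese Black cows are described here. Total RNA of the follicular wall, which holds granulosa cells and theca interna, was hybridized for 3 largest follicles (F1) and 2 second-largest follicles (F2), with 1 follicle on each 1-color array. The surrounding stroma and theca externa had been cut away before RNA extraction, no treatment is named in the labels, and the ages of the cows are not given in the sources used here. Part of the cows contributed an F1 as well as an F2, but the labels do not tie a follicle to a cow, so the p-values below treat the 5 follicles as independent. To choose the probes, each background-subtracted signal was scaled to the median of the 100 GAPDH spots on its array, so a signal of 1 equals the GAPDH level. Of 10163 probes, 1415 carried a RefSeq transcript accession, and 763 of these (called eligible below) were well above background and not saturated on all 3 F1 arrays, with OXT left out. For each eligible probe the highest of the 3 F1 signals was divided by the lowest, and the 60 probes with the largest F1 ratio were taken. A symbol was found for 58 of them, and the 60 probes had 60 different accessions. Because the F1 signals chose the probes, their F1 ratios are given as a description and were not tested.

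The largest follicle of a wave grows on gonadotropins, and its granulosa cells turn theca androgens into estradiol through aromatase. Binding proteins of the insulin-like growth factors, locally made peptides and matrix proteins are known to act in the follicular wall beside the gonadotropins, and the theca interna also carries vessels, fibroblasts and leukocytes. The wall is measured as a whole, so fewer cells of a type and less RNA per cell cannot be told apart.

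Each probe is a 60-base oligonucleotide. The sequences below are shown for probes on which the results turn: 4 G- and C-rich probes that were highest in the same F1 (IGFBP2, CCKBR, NPBWR2 and GPBAR1), and 4 that stand for the matrix, retinoid, adhesion and cell division genes among the 60. They run 5′ to 3′ as deposited, capitals mark the longest unbroken run of G and C, and the probes were not placed on a genome here.
IGFBP2: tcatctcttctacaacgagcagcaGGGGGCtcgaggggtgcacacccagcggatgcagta
CCKBR: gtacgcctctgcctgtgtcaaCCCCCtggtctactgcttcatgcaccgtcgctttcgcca
NPBWR2: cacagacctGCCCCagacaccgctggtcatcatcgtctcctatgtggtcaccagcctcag
GPBAR1: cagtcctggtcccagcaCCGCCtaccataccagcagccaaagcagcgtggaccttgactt
TNFAIP6: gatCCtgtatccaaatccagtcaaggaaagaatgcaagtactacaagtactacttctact
CRABP2: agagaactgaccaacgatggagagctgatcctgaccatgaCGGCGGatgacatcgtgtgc
CDH1: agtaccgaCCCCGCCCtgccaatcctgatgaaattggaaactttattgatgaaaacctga
BIRC5: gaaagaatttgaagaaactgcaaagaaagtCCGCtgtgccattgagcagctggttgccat
G and C made up 60% of the bases in each of the first 4 probes. They made up 38.3% in the probe of TNFAIP6, 45% in those of CDH1 and BIRC5, and 55% in that of CRABP2.

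The F1 ratio of the 60 probes ran from 2.77 to 18.6 with a median of 3.35, against a median of 1.52 over the 763 eligible probes. Just inside the last place were SOD2 (F1 ratio 2.78), PKIG (2.77) and GPBAR1 (2.77), and just outside it EZR (2.74), TUFT1 (2.71) and MYOC (2.70), so the end of the set is not a step in the data. Weak probes were frequent in the set. The median of the 3 F1 signals was under 0.1 for 29 of the 60 probes, against 164 of the 763 eligible probes, and it was 1 or more for 12 of the 60. The scanner software gives an error for each spot, and the gap between the highest and the lowest F1 signal was 2.07 to 9.22 times the combined error of the 2 spots. The gap was over 5 such errors for 34 of the 60 probes and under 3 for 5 of them, which were DPP6, NPBWR2, ALDH6A1, RGS7 and AIF1. Of the 763 eligible probes, 63 had a gap over 5 errors and 498 a gap under 3. The choice by the F1 ratio favours a large gap, so these counts are a description. The array that carried the highest signal was F1 replicate 1 for 23 probes, F1 replicate 2 for 27 and F1 replicate 3 for 10.

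**Figure D1:**
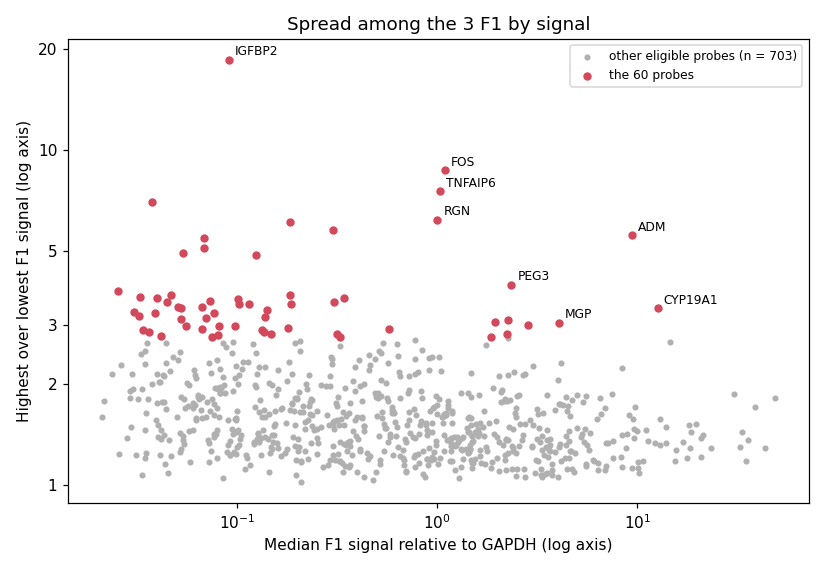
The highest over the lowest F1 signal (y axis, log scale) is plotted against the median F1 signal relative to GAPDH (x axis, log scale) for the 60 probes (red) and the other 703 eligible probes (grey), 1 point per probe. IGFBP2 lies highest at 18.6, and the bright probes ADM, CYP19A1, MGP and PEG3 stand above the cloud of probes of like signal.

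The GAPDH median used for scaling was 983.1, 868.7 and 1411.2 signal units on the F1 arrays (replicates 1 to 3, the order kept below) and 1255.1 and 999.4 on the F2 arrays. Relative to GAPDH, the 75th percentile of all probes was 0.353, 0.352 and 0.271 in the F1, against 0.246 and 0.316 in the F2. In F1 replicate 3 most probes therefore lay low against GAPDH, and 476 of the 763 eligible probes were lowest in it. When the 75th percentile replaced GAPDH, 174 of the eligible probes were lowest in F1 replicate 3. Among the 60 probes the count was 32 with GAPDH and 31 with the 75th percentile. The marker genes of the labelled tissue were present: all 6 granulosa markers measured were called higher in the F1, against 6.39% of all probes tested. Their summed signal was 173 to 237 in the F1, against 6.84 to 6.86 in the F2, where 2 of them, CYP19A1 and FSHR, were not well above background on both arrays. Of the 6, 3 were eligible, namely AMH, CYP19A1 and FSHR, and the largest F1 signal among these was 18.5. Most of the F1 sum thus came from markers outside the eligible probes, which leave out saturated ones.

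Among the secreted signals and binding proteins were 7 of the 60 genes. IGFBP2, which binds insulin-like growth factors, had the largest F1 ratio of all, with signals of 0.687, 0.0908 and 0.0369 in the F1, against 0.0320 and 0.0322 in the F2. F1 replicate 1 was the brightest by far, replicate 2 lay between, and only replicate 3 lay close to the F2. ADM encodes adrenomedullin, a peptide that widens vessels, and was the brightest gene of this group. Its signals were 9.44, 40.0 and 7.17 in the F1, against 8.21 and 24.8 in the F2, so each group held a follicle several times brighter than the rest, and the F2 lay within the F1. NPVF, the precursor of RFamide-related peptides, gave 0.0535, 0.0296 and 0.146 in the F1, against 0.0205 and 0.0182 in the F2, of which only 1 F2 signal was well above background. PTHLH, the parathyroid hormone-like hormone, gave 0.318, 0.1001 and 0.138 in the F1, while neither F2 signal, 0.00601 and 0.00148, was well above background. FRZB, a secreted inhibitor of Wnt signals, ranged from 0.152 to 0.536 among the F1 and was 0.272 and 0.653 in the F2.

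The 2 chemokines of the set had their highest F1 signal in replicate 2 and lay higher still in both F2. CCL2, which attracts monocytes, gave 0.0444, 0.0928 and 0.0264 in the F1, against 0.592 and 0.488 in the F2. CCL5, which attracts T cells and monocytes, gave 0.0865, 0.321 and 0.183 in the F1, against 1.03 and 0.780 in the F2. Every F2 signal of both genes thus exceeded every F1 signal.

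Genes of transcription and growth control numbered 5. FOS, a subunit of the AP-1 transcription factor and an immediate early gene, gave 0.325, 2.83 and 1.09 in the F1, against 0.785 and 6.85 in the F2, so its ratio between the 2 F2, 8.72, was as large as its F1 ratio of 8.70. PEG3, an imprinted gene that encodes a zinc finger protein, gave 2.34, 2.54 and 0.642 in the F1, against 2.04 and 5.10 in the F2. Here F1 replicate 3 was the low follicle. BIRC5, which encodes the mitotic protein survivin, gave 0.0774, 0.141 and 0.258 in the F1, against 0.0970 and 0.0715 in the F2. HOPX and BLCAP, the other two genes of the group, had F1 ratios of 3.46 and 3.37.

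The matrix, adhesion and coagulation genes numbered 6. TNFAIP6, which modifies hyaluronan and is known as a gene induced by the gonadotropin surge, gave 1.04, 0.151 and 1.14 in the F1, against -0.00469 and 0.0319 in the F2. Here F1 replicate 2 was low and the others alike. F3, tissue factor of the coagulation cascade, gave 0.989, 0.171 and 0.303 in the F1, against 0.0802 and 0.156 in the F2. MFAP5, a protein of microfibrils, gave 0.0681, 0.0532 and 0.271 in the F1, against 0.116 and 0.113 in the F2. The bright follicle was replicate 1 for F3 and replicate 3 for MFAP5. CDH1, which encodes E-cadherin, gave 4.95, 1.62 and 1.94 in the F1, against 0.857 and 2.89 in the F2. MGP, an inhibitor of calcification, was the brightest gene of the group with 3.68, 11.2 and 4.06 in the F1, against 30.4 and 50.3 in the F2, and the groups did not overlap. AOC3, an amine oxidase of vessel walls, ranged from 0.105 to 0.302 in the F1.

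Steroid, retinoid and detoxification enzymes and binding proteins numbered 5, and for 4 of them both F2 lay under every F1, as they did for 35.4% of the eligible probes. CYP19A1, the aromatase that makes estradiol, gave 18.5, 5.50 and 12.6 in the F1, against 0.00651 and 0.0279 in the F2. It varied 3.37-fold among the F1, and yet its lowest F1 signal was far above both F2. RGN, which encodes regucalcin, gave 1.55, 0.250 and 1.003 in the F1, against 0.0291 and 0.0209 in the F2. CYP19A1, RGN and TNFAIP6 shared the same low follicle, F1 replicate 2. GSTA2, a glutathione transferase, gave 0.637, 0.183 and 0.105 in the F1, against 0.0331 and 0.0347 in the F2. ALDH1A1, which makes retinoic acid, gave 1.11, 3.46 and 2.25 in the F1, against 0.207 and 0.763 in the F2. CRABP2, which carries retinoic acid to its nuclear receptors, went the other way, with 0.0391, 0.0306 and 0.0996 in the F1, against 0.630 and 0.738 in the F2.

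Receptors and signal transduction genes formed the largest group with 11 members, most of them weak. OXTR, the oxytocin receptor, gave 0.0470, 0.0356 and 0.132 in the F1, and neither F2 was well above background. ESR2, the estrogen receptor of granulosa cells, gave 0.0703, 0.147 and 0.198 in the F1, against 0.0269 and 0.0618 in the F2. Both genes were higher in every F1 than in the F2. GUCY2C, a guanylate cyclase receptor, ranged from 0.0647 to 0.189 in the F1, and AKAP4, a protein of the sperm fibrous sheath, from 0.0663 to 0.198. NPBWR2, a receptor for neuropeptides B and W, gave 0.0709, 0.0327 and 0.0195 in the F1, against 0.0198 and 0.0272 in the F2. F1 replicate 1 stood apart and the F2 lay within the F1. CCKBR, the gastrin and cholecystokinin receptor, ranged from 0.0563 to 0.199 in the F1. GPBAR1, a bile acid receptor, ranged from 0.0474 to 0.131. The remaining members were AGER, RGS7, PIK3CA and PKIG, with F1 ratios from 2.77 to 3.16.

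The intermediary metabolism and redox genes numbered 9, and 7 of them were lowest in F1 replicate 3, as were 62.4% of the eligible probes. ACSM1, a medium-chain acyl-CoA synthetase, gave 0.179, 0.125 and 0.0369 in the F1, and neither F2 was well above background. COX6A2, a subunit of cytochrome c oxidase, gave 0.0880, 0.0399 and 0.0243 in the F1, against 0.0521 and 0.0558 in the F2. The F2 of COX6A2 lay within the F1. MB, the oxygen store myoglobin, gave 0.0397, 0.118 and 0.0817 in the F1, against 0.0576 and 0.0427 in the F2. SOD2, the superoxide dismutase of mitochondria, was bright in all follicles, with 2.42, 1.86 and 0.872 in the F1, against 1.64 and 1.72 in the F2. SELENOP, a secreted selenoprotein, ranged from 1.88 to 5.63 in the F1 and was above that in both F2, at 6.87 and 10.5. The F1 ratios of DDO, AMD1, ALDH6A1 and CROT lay between 2.80 and 3.47.

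Membrane transport and channel genes numbered 6. CD36, a scavenger receptor that takes up fatty acids and lipoproteins, gave 0.341, 0.804 and 0.222 in the F1, against 0.164 and 0.246 in the F2. SLC1A5, a carrier of neutral amino acids, gave 0.0311, 0.112 and 0.102 in the F1, against 0.642 and 0.612 in the F2. DPP6, an accessory protein of potassium channels, gave 0.0644, 0.0255 and 0.0169 in the F1, against 0.0210 and 0.0209 in the F2. The groups overlapped for CD36 and DPP6 and were apart for SLC1A5. KCNMA1, a calcium-activated potassium channel, was also above every F1 in both F2, while SLC1A3 and RHCG overlapped.

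Genes of vesicles, filaments and calcium release numbered 6. BFSP1, a filament protein known from the lens, gave 0.0377, 0.132 and 0.0190 in the F1, against 0.1998 and 0.219 in the F2. IRAG1, a regulator of calcium release in smooth muscle, ranged from 0.169 to 0.498 in the F1 and was 0.703 and 1.01 in the F2. SYP, MYO1C and WASL were highest in F1 replicate 1, with F1 ratios from 3.27 to 3.49.

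The smallest function group held 3 leukocyte and interferon genes. ISG15, a ubiquitin-like protein induced by interferon, gave 2.25, 1.11 and 3.15 in the F1, against 0.384 and 0.317 in the F2. AIF1, a marker of macrophages, gave 0.0417, 0.0700 and 0.0252 in the F1, against 0.182 and 0.197 in the F2. ISG15 lay higher in every F1 and AIF1 higher in both F2. GZMB, a protease of cytotoxic lymphocytes, overlapped between the groups. The 2 probes without a symbol had F1 ratios of 2.86 and 2.93.

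**Figure D2:**
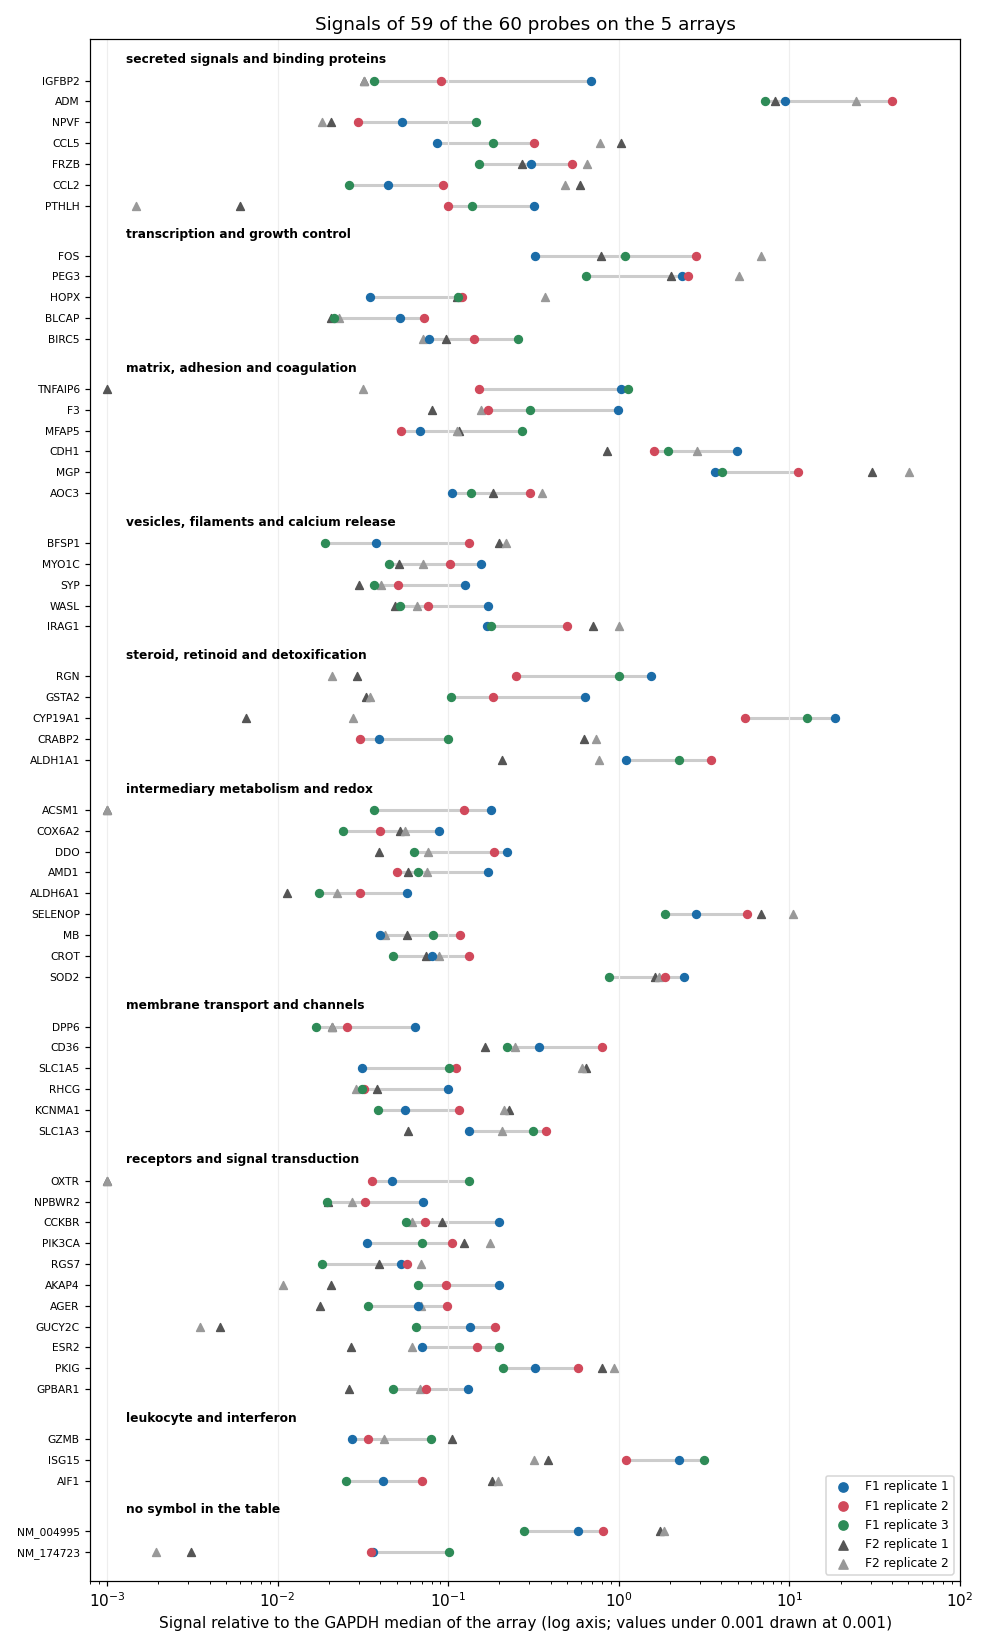
Signals relative to the GAPDH median of the array (x axis, log scale) are shown for 59 of the 60 probes (rows), grouped by function, on the 3 F1 (circles, joined by a grey line) and the 2 F2 (triangles) arrays. Signals under 0.001 are drawn at 0.001. The F2 fall to the right of the line for CCL2, CRABP2 and MGP, to the left for CYP19A1, RGN and PTHLH, and on it for ADM and SOD2.

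To ask whether the genes that varied among the F1 also differed between F1 and F2, limma was fitted to all 5528 probes that rose well above background throughout the F1, the F2 or both. Of the 60 probes, 10 were called with the F1 higher and 6 with the F2 higher at a Benjamini-Hochberg adjusted p under 0.05, which is 26.7% of them. The background was 634 of the 5528 probes (11.5%), with 6.39% of all tested called on the F1 side and 5.08% on the F2 side, and 119 of the 763 eligible probes (15.6%, split into 8.65% and 6.95%). The choice of probes bears on this count in both directions. It asked for a signal above background in every F1 but not in the F2, and 8 of the 10 probes called higher in the F1 had an F2 signal that was not well above background. Among the 50 probes with both F2 well above background, 2 were called for the F1 and 6 for the F2. It also took probes with a large F1 spread, which enters the error of the same test, and 26 of the 60 had an unadjusted p under 0.05. The split of 10 to 6 turned to 8 to 9 with the 75th percentile, 8 to 10 with quantile normalization and 4 to 10 when all 5 arrays had to be well above background. Without F2 replicate 1 or without F2 replicate 2, 1 probe was called.

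CYP19A1 showed the largest difference of the 60 genes. F1 exceeded F2 at least 541-fold (limma adjusted p = 0.000801), and the gene was called in each alternative setting in which it was tested. Where an F2 was not well above background, as here, the fold is a lower bound, set against the higher of the probe's own F2 signal and the lowest signal well above background on that array. By the same bound, PTHLH exceeded the F2 at least 10.5-fold (limma adjusted p = 0.00548), GUCY2C at least 7.58-fold (0.00243), ACSM1 at least 6.04-fold (0.00259), AKAP4 at least 5.89-fold (0.0215) and OXTR at least 3.89-fold (0.00201). The p-values come from signals raised to 0.001 and not from these bounds, so they depend on that floor. With a floor of 0.01 the limma adjusted p was 0.011 for ACSM1, 0.0152 for OXTR and 0.00166 for PTHLH. RGN was 29.6-fold higher in F1 than in F2 (log2 difference 4.89 ± 0.76, SE; limma adjusted p = 0.0120). TNFAIP6 exceeded the F2 at least 26.2-fold (limma adjusted p = 0.0435) and ISG15 5.70-fold (log2 difference 2.51 ± 0.47, SE; limma adjusted p = 0.0219). With the 75th percentile in place of GAPDH the adjusted p of these last genes rose to 0.059 and 0.0546. TNFAIP6 was also lost with the replicate block (0.101) and without F1 replicate 1 (0.117) or 3 (0.109), and ISG15 without F1 replicate 1 (0.0691). The 10th was the probe NM_174723, which has no symbol here, at least 3.27-fold (limma adjusted p = 0.00514). IGFBP2, GSTA2, F3, NPVF, ALDH1A1 and ESR2 were also lower in both F2 than in every F1 but did not pass the test, with limma adjusted p from 0.0595 to 0.278. GSTA2 passed with the replicate block (limma adjusted p = 0.0308) and without F1 replicate 1 (0.0477) or 3 (0.0452). It also passed with normexp background correction (0.00123), the authors' deposited values (0.0206), all 5 arrays well above background (0.0136), a floor of 0.01 (0.0298) and an intensity trend (0.0232). With the 75th percentile it did not pass (0.064). With normexp, IGFBP2 (0.0182) and F3 (0.00262) passed and NPVF did not (0.238).

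Higher in the F2 were the retinoic acid carrier CRABP2, 13.9-fold (log2 difference F1 minus F2 of -3.79 ± 0.53, SE; limma adjusted p = 0.00806), and CCL2, 11.3-fold (-3.49 ± 0.53, SE; limma adjusted p = 0.0115). SLC1A5 was higher by 8.87-fold (limma adjusted p = 0.0212), MGP 7.09-fold (0.0252), CCL5 5.21-fold (0.0435) and AIF1 4.52-fold (0.0310). Without F1 replicate 1 the limma adjusted p was 0.0636 for CCL5, 0.0699 for MGP and 0.0873 for AIF1, and without F1 replicate 3 it was 0.0954 for CCL5 and 0.074 for MGP. CCL5 was also lost with the replicate block (0.0749) and AIF1 with normexp background correction (0.088). BFSP1, SELENOP, IRAG1, KCNMA1, PKIG, PIK3CA and 1 probe without a symbol had both F2 above every F1 but did not pass the test. Their limma adjusted p ran from 0.05815, for the probe without a symbol, to 0.171. BFSP1 passed without F1 replicate 2 (0.011), with normexp background correction (0.0376) and when all 5 arrays had to be well above background (0.0465). ADM, CROT, SOD2 and MFAP5 gave the smallest differences in relation to their spread, with limma adjusted p from 0.868 to 0.980.

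Where the F2 lay went with which F1 was the bright one, among all eligible probes as well as in the set. Over the whole set both F2 were above every F1 for 13 probes, below every F1 for 16 and within the F1 for 12, against 20.2%, 35.4% and 13.1% of the eligible probes. Of the 27 probes with their highest F1 signal in replicate 2, 12 had both F2 above every F1 and 2 had both below. These 12 were CCL2, CCL5, MGP, AIF1, SELENOP, IRAG1, KCNMA1, SLC1A5, BFSP1, PKIG, PIK3CA and 1 probe without a symbol. Of the 23 probes with their highest F1 signal in replicate 1, 0 had both F2 above and 8 both below, and of the 10 highest in replicate 3, 1 had both above and 6 both below. Of the eligible probes as a whole, 102 of 338 highest in replicate 2 had both F2 above and 90 both below. For replicate 1 the counts were 37 and 146 of 350, and for replicate 3 they were 15 and 34 of 75, so the share below for replicate 1 was 34.8% in the set and 41.7% among all eligible probes. With the 75th percentile in place of GAPDH the counts above were 12 of 24, 0 of 23 and 3 of 13 for replicates 2, 1 and 3 in the set. Among all eligible probes they were 99 of 227, 46 of 234 and 67 of 302. With quantile normalization they were 13 of 24, 0 of 23 and 3 of 13 in the set. The eligible counts were then 107 of 237, 43 of 238 and 74 of 288. For replicate 2 the eligible share thus lay closer to that of the set than with GAPDH.

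Summed signals of some stromal and leukocyte marker lists had their highest F1 value in replicate 2 and were higher in the F2. The summed signal of 3 fibroblast markers was 5.63, 9.34 and 6.21 across the F1 arrays, against 9.79 and 16.8 in the F2. The sum of the endothelial markers above background was 0.153, 0.250 and 0.152 in the F1, against 0.763 and 1.10 in the F2, while CDH5 and SELE were at background on all arrays. For the 4 macrophage markers, AIF1 among them, the sum was 0.142, 0.189 and 0.103 in the F1, against 0.506 and 0.519 in the F2. Single genes of these lists did not all follow their sum. SELP, a selectin of activated endothelium, made up most of the endothelial sum in the F2 at 0.636 and 0.864, while TIE1 and TEK overlapped between the groups. DCN, the largest part of the fibroblast sum, was 6.87 in F1 replicate 2 and lower, at 5.77, in F2 replicate 1. COL1A2, a collagen chain, was lowest in F1 replicate 2, CD14 was highest in F1 replicate 1, and FCER1G was lower in both F2 than in every F1. These genes were named after their values had been seen. The summed signal of the 6 theca markers, at 69.3, 105 and 79.1 in the F1, was highest in replicate 2 as well. It was lower in the F2, at 33.3 and 30.1. None of the 5 eligible theca genes was highest in F1 replicate 2, so that peak came from the marker that was not eligible. CYP11A1, LHCGR and CYP17A1 were lower in the F2, but STAR rose there to 16.1 and 9.91. HSD3B1 overlapped between the groups. These theca genes too were named after their values had been seen. Other leukocyte lists were highest in F1 replicate 1, namely neutrophils (0.164, 0.0945 and 0.0662) and B cells (0.354, 0.230 and 0.217). Their F2 sums were 0.701 and 0.459 for neutrophils, and 0.299 and 0.325 for B cells. The T cell list was highest in F1 replicate 2 and higher in the F2, at weak signals, while the F2 sums of the mast cell list lay on both sides of the F1. The part of these cell types in the signals of the 12 genes was not tested.

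**Figure D3:**
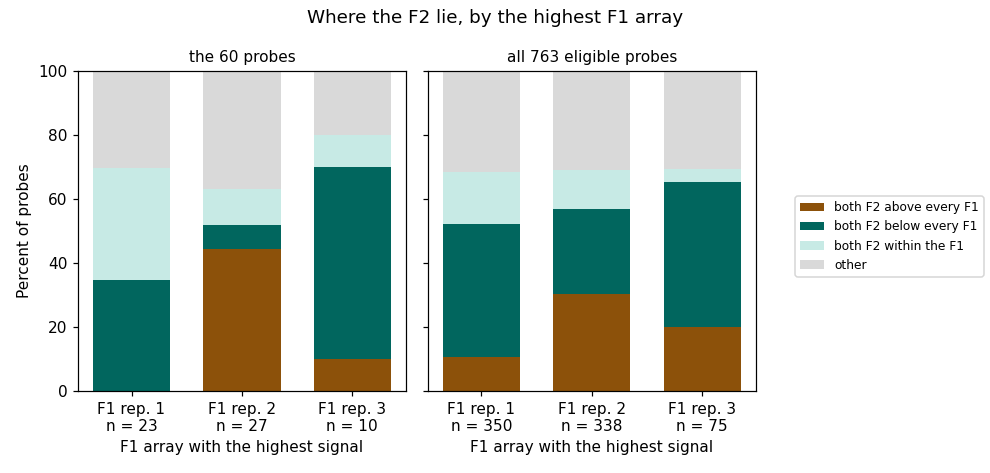
Bars give the percent of probes (y axis) by where the 2 F2 lie against the 3 F1, for probes whose highest F1 signal was on F1 replicate 1, 2 or 3 (x axis), in the 60 probes (left) and all 763 eligible probes (right). Both F2 were above every F1 for 44.4% of the 27 probes highest in replicate 2 and for 0 of the 23 highest in replicate 1.

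The choice of probes did not use the F2, so the ratio between the 2 F2 shows whether the same genes varied in another pair of follicles. Of the 60 probes, 50 were well above background and unsaturated in both F2. Their median ratio of the higher to the lower F2 signal was 1.38, against 1.28 for the other 686 eligible probes with such a ratio. The gap widened with the signal. For probes with a median F1 signal at the GAPDH level of 1 or more, the median F2 ratio was 2.08 for 10 of the set and 1.21 for 269 others. For probes under 0.1 it was 1.31 for 24 of the set and 1.40 for 127 others, and for those between these signals 1.47 for 16 of the set and 1.31 for 290 others. These signal classes were chosen after the values had been seen, and with 2 follicles the comparison is a description. The 5 bright genes with an F2 ratio of 2 or more were FOS (8.72), ALDH1A1 (3.69), CDH1 (3.38), ADM (3.02) and PEG3 (2.50), and all 5 were higher in F2 replicate 2. Eligible probes as a whole also lay higher on that array relative to GAPDH, with a median signal of 0.538 against 0.432 in F2 replicate 1. SOD2 (1.05) and ISG15 (1.21) differed little between the F2. With the 75th percentile the bright probes gave 1.87 in the set and 1.21 outside it, and with quantile normalization 2.20 and 1.18.

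**Figure D4:**
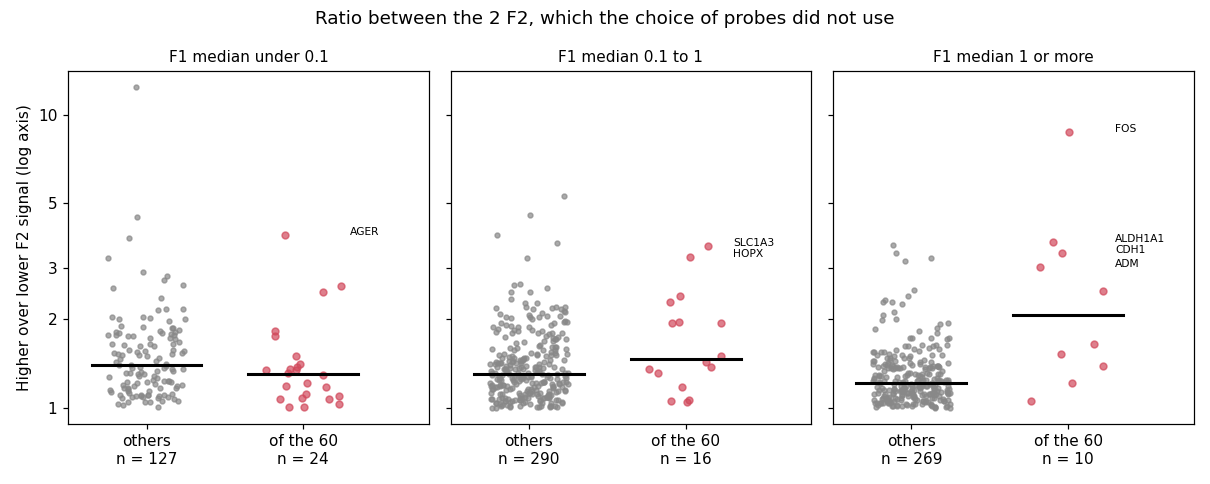
The ratio of the higher to the lower of the 2 F2 signals (y axis, log scale) is plotted for the 60 probes (red) and the other eligible probes (grey) in 3 classes of median F1 signal, 1 point per probe, with black lines at the medians. In the brightest class the line of the set lies at 2.08 and that of the others at 1.21, in the middle class they are at 1.47 and 1.31, and in the weakest class at 1.31 and 1.40.

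Base composition set some of the weak probes apart. All 6 probes of the set with 60% or more G and C (IGFBP2, NPBWR2, COX6A2, CCKBR, MYO1C and GPBAR1, of which 4 are printed above) had their highest F1 signal in replicate 1 and their lowest in replicate 3. The median F1 signal of all 6 was under 0.2. Of all eligible probes under that signal, 17 had 60% or more G and C and 17 of these were highest in F1 replicate 1, against 93 of 239 with less G and C. With the 75th percentile in place of GAPDH these counts were 13 of 17 and 75 of 239, and the 6 probes of the set were still highest in replicate 1. Both limits were chosen after the values had been seen. The part of base composition in the signals of the 6 probes was not tested.

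**Figure D5:**
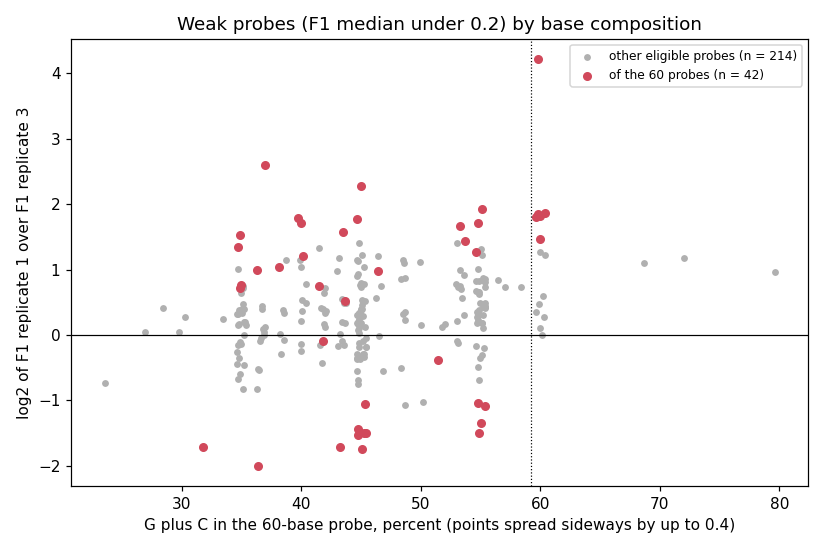
The log2 ratio of F1 replicate 1 to F1 replicate 3 (y axis) is plotted against the percent of G and C in the probe (x axis) for eligible probes with a median F1 signal under 0.2, with the 60 probes in red. The dotted line stands just below 60%. The 6 red points to its right are all above 0, with IGFBP2 on top.

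Of the 14 function lists read beside the set, 12 held at least 1 of its probes, and 18 of the 60 were in a list. The immediate early list had 3 eligible genes: FOS, CCN2, a matricellular growth regulator, and ZFP36. CCN2 gave 1.05, 2.75 and 1.75 in the F1, against 2.82 and 5.83 in the F2, which is the order of FOS on the F1 arrays. ZFP36 did not keep that order, with 0.250, 0.276 and 0.188 in the F1, against 0.404 and 0.826 in the F2. It was lowest in F1 replicate 3, its F1 ratio was 1.47, and it was named after its values had been seen. All 4 genes of the cell cycle list were eligible and all 4 were highest in F1 replicate 3. Their summed signal was 0.792, 0.956 and 1.75 in the F1, against 1.02 and 0.719 in the F2, and their limma adjusted p between the groups ran from 0.368 to 0.859. Next to BIRC5 the largest F1 ratio among them was 2.38, for the mitotic cyclin CCNB2. In the interferon list both eligible genes, ISG15 and MX1, were lowest in F1 replicate 2 and called higher in the F1. MX1, an antiviral GTPase, gave 1.64, 1.07 and 1.63 in the F1, against 0.377 and 0.395 in the F2 (limma adjusted p = 0.0150).

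The list of chemokines and cytokines had 21 genes on the array, of which 12 were at background on all arrays and 3 were eligible, CCL2 and CCL5 among them. Of its 9 tested genes 5 were called for the F2. Over all probes tested, 6.39% were called for the F1 and 5.08% for the F2, and the calls of the other lists stand beside that background. Among follicle growth factors and receptors, 2 of 10 eligible genes were in the set (IGFBP2 and ESR2), and of 15 tested 9 were called for the F1. In the matrix and adhesion list, 3 of 26 eligible genes were in the set, and of 27 tested 2 were called for the F1 and 5 for the F2. In steroid synthesis and cholesterol, CYP19A1 alone of 14 eligible genes was in the set, and the median F1 ratio of the list was 1.48, close to that of all eligible probes. Of its 15 tested genes 3 were called for the F1 and 3 for the F2. In metal and redox, 2 of 15 eligible genes were in the set (SOD2 and GSTA2), in lipid handling 1 of 12 (CD36), in complement and coagulation 1 of 10 (F3), in contractile and muscle genes 1 of 8 (MB), and in neuropeptides and granins 2 of 6 (ADM and PTHLH). Calls for the F1 and the F2 numbered 2 and 7 of 12 tested in complement and coagulation, 3 and 5 of 14 in lipid handling, and 1 and 1 of 7 in neuropeptides and granins. In metal and redox 2 of 16 were called for the F1, and 2 of 8 contractile and muscle genes and 1 of 4 heat shock genes for the F2. The heat shock and the antigen presentation lists had 3 eligible genes and 1, and 0 of them were in the set.

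Of the 16 marker lists of ovarian and blood cell types, 4 held probes of the set, namely the granulosa list (CYP19A1), the macrophage list (AIF1), the surface epithelium list (CDH1) and the list of luteal and surge-induced genes (TNFAIP6 and OXTR). TNFAIP6 and OXTR were both lowest in F1 replicate 2 and highest in replicate 3, and so was AMH, the granulosa hormone with the largest F1 ratio outside the set in its list (3.53, 3.18 and 5.91 in the F1). STAR, the only other eligible gene of the luteal and surge-induced list, gave 5.56, 3.14 and 5.33 in the F1. It was thus highest in F1 replicate 1, and unlike TNFAIP6 and OXTR it was higher in both F2, at 16.1 and 9.91. The other 12 marker lists, among them theca, endothelium and fibroblasts, had 0 probes in the set.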

How the data were processed

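The authors labelled RNA of each follicle with Cy3, hybridized it to a custom array of 60-base probes and extracted the spots with Agilent Feature Extraction. In the deposited scanner files each spot has a processed signal intensity from which background was subtracted, an error of it, raw mean and local background intensities, and quality flags. A further table deposited by the authors holds that signal as a ratio to the GAPDH median of its array, used here as an alternative. Here the processed signals were scaled to the median of the 100 GAPDH spots, as in the methods. For limma 3.58.1 in R 4.3.3 (lmFit and eBayes, F1 minus F2, no block), signals under 0.001 of GAPDH were raised to 0.001 and log2 values were taken. Tested were the 5528 of 10163 probes that passed the background flag in the whole of either group, with Benjamini-Hochberg adjustment over all of them and a threshold of 0.05. Symbols came from RefSeq genes by accession (assembly ARS-UCD2.0, names alone), matching 1364 of 1415 accessions. The 60 probes, the function groups and all gene lists were chosen with earlier results of these data known. Any of the 60 could be named, and signals on all arrays are given at least for the 20 with the largest F1 ratio and for those in a list; a list gene outside the set is named where its F1 ratio was the largest of the rest. Alternatives were other normalizations, background corrections, filters and floors, limma options, a replicate block and leaving out each follicle. The number of arrays limits the precision. PCR, in situ hybridization and hormone values are not analysed here. Signals of 1 of the 60 probes and the sequence of another are not reported here, although both probes are in the counts.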

Additional observations from a re-analysis of the deposited data

How the results depend on the processing

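Of the 60 probes, 45 were again among the 60 with the largest F1 ratio with the 75th percentile in place of GAPDH, 44 with quantile normalization and 52 in the authors' deposited values, but 26 with normexp background correction and 32 when every F1 signal had to be at least 0.05. In all 5 of these settings 15 were kept, among them FOS, TNFAIP6, RGN, CYP19A1, CDH1 and MGP, and leaving out 1 F1 in turn kept 31 to 35. The 2 probes kept whichever F1 was left out were IGFBP2 and FOS, and of these only FOS was also kept in all 5 settings. The count of 16 probes called between F1 and F2 was 26 with normexp, 9 when a single array above background was enough and 1 with no filter, and leaving out 1 follicle in turn gave 1 to 22, with 1 for either F2. Both last filters test more probes (6682 and 10163), and leaving out an F2 leaves 1 sample in that group, which is assumed to vary like the F1. The number of probes with both F2 within the F1 was 4 to 23 when 1 follicle was left out, against 12. Follicles of the same replicate number correlated by 0.039 and 0.13 in their deviations from the group means, so the numbers are not known to pair them, and the fit with a replicate block called 17 of the 60 probes (11 for the F1 and 6 for the F2). For the 31 genes with signals on all arrays, no log2 difference past the threshold in the main fit or the alternative changed direction. Of these comparisons 416 were on the same side of the threshold, 15 newly past it and 55 no longer past it. Some differences that passed in neither fit did change sign, such as that of ADM (-0.0336, and 0.446 with the replicate block). The order of the F1 arrays, the place of the F2 and the base composition counts were recomputed under other scalings after the data had been seen, and 30 to 36 probes were lowest in F1 replicate 3. The median F1 signal was under 0.1 of GAPDH for 29 of the 60 probes, and the lowest signal well above background was 0.0124 to 0.0208 on the F1 arrays.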
